A study of Mus musculus with 6 samples.

Results

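Interferon-stimulated genes outside the guanylate-binding protein (GBP) family were followed in mouse CD8+ T cells, the cytotoxic lymphocytes, after treatment with a proteasome inhibitor or with a compound described as a proteasome activator. The set was chosen by name, with earlier results of these data known, and holds 40 genes of the antiviral response. Of these, 39 had a named probe among the 45281 probes of the array, through 67 probes, and only Ifi44 had none here. After a filter on dim probes 32 members were tested among 13524 genes.

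Total RNA came from CD8+ T cells isolated from spleens of C57BL/6 mice aged 6 weeks. The cells were pre-treated with the vehicle DMSO, with epoxomicin (0.5 µM), which blocks the proteasome irreversibly, or with E9 (1 µM), a compound known here by its code and labelled as a proteasome activator. All 3 groups were then activated for 3 days on plate-bound antibodies to CD3 and CD28 (5 µg/ml) in medium with IL-2, so the DMSO arrays are activated cells too, and the compounds were used at different doses. Each group had 2 Illumina bead arrays, called biological duplicates in the design text; nothing in the labels ties arrays to animals or cultures, so the p-values measure only the spread between these arrays.

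Interferons bind receptors whose JAK kinases phosphorylate STAT proteins. Type I interferons act mainly through a complex that contains STAT2 and IRF9 and binds the interferon-stimulated response element (ISRE), and interferon gamma acts mainly through the gamma-activated site (GAS). The induced genes include sensors of foreign nucleic acid, proteins that block steps of viral replication, enzymes of the ubiquitin-like protein ISG15, and transcription factors that prolong the response. Activated CD8+ T cells are themselves a main source of interferon gamma.

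Intensities are the deposited, quantile-normalized values on a linear scale, and 34.5 was taken as the detection limit, from the mode of the intensities (30.7) and the spread below it (SD 2.31). Fold changes are differences of log2 values after background correction with an offset of 50, which makes those of dim genes smaller than the ratio of their intensities. Each carries the standard error (SE) of the limma model, and a gene rose, fell or differed if its adjusted p was under 0.05. All arrays ran from 22 to 18026.1 with a median of 34.2, since quantile normalization makes them alike, and the correlation of the 2 arrays of a group, across genes that are not independent replicates, was 0.996 to 0.998. Of the 6 CD8+ T cell markers all were above the limit on every array, with Cd8b1 bright (4752.9 to 7588.1) and the Cd8a probe dim (36.5 to 48.5). The summed intensity of that list was 11490 to 11980 with DMSO, 13180 to 13200 with epoxomicin and 17930 to 18350 with E9. Against DMSO 5 of its 6 genes rose with E9, beside 7.52% of all tested genes. Bulk RNA cannot tell fewer cells of a type from less RNA per cell.

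With E9, 18 of the 32 tested members rose against DMSO and 0 fell, where 7.52% of all tested genes rose and 7.61% fell (15.1% in either direction). The largest rises were in Ifit3, an antiviral effector (log2 fold change 1.34), and Usp18, the protease that removes ISG15 (1.05), the only members to pass with at least a 2-fold change. With epoxomicin 0 members rose and 2 fell against DMSO, Samhd1 (-0.49) and Parp14 (-0.48), where 0.710% of genes rose and 0.547% fell (1.26% in either direction). Between the compounds 22 members were lower with epoxomicin than with E9 and 0 higher, against a background of 6.62% lower and 6.00% higher (12.6% in either direction). Both comparisons against DMSO use the same DMSO arrays.

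The median log2 fold change of the tested members was 0.28 with E9 and -0.059 with epoxomicin, and -0.363 for epoxomicin minus E9, where the medians over all tested genes were -0.0057, 0.0021 and 0.0080. Over all 39 members with a probe, without a filter on dim probes, these medians were 0.22, -0.053 and -0.284. The filter bears on the count: Irf7, Oas2 and Oasl2 were above the limit on both E9 arrays and on no other array. Of the 24 members above the limit on all 6 arrays, 12 rose with E9 in a fit restricted to such genes, where 9.68% of genes rose and 9.85% fell. In that fit 0 members rose and 2 fell with epoxomicin (0.844% and 0.620% of genes), and 0 were higher and 17 lower with epoxomicin than with E9 (7.42% and 8.32%). On the arrays themselves, both E9 values lay above both DMSO values for 26 of the 32 members, in none below (24.7% and 26.7% of all genes), and for 6 the groups overlapped. Both epoxomicin values lay above both DMSO values for 5 members and below for 15 (21.2% and 20.3% of genes). Against E9 both epoxomicin values were higher for 3 members and lower for 27 (27.0% and 23.0% of genes).

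**Figure D1:**
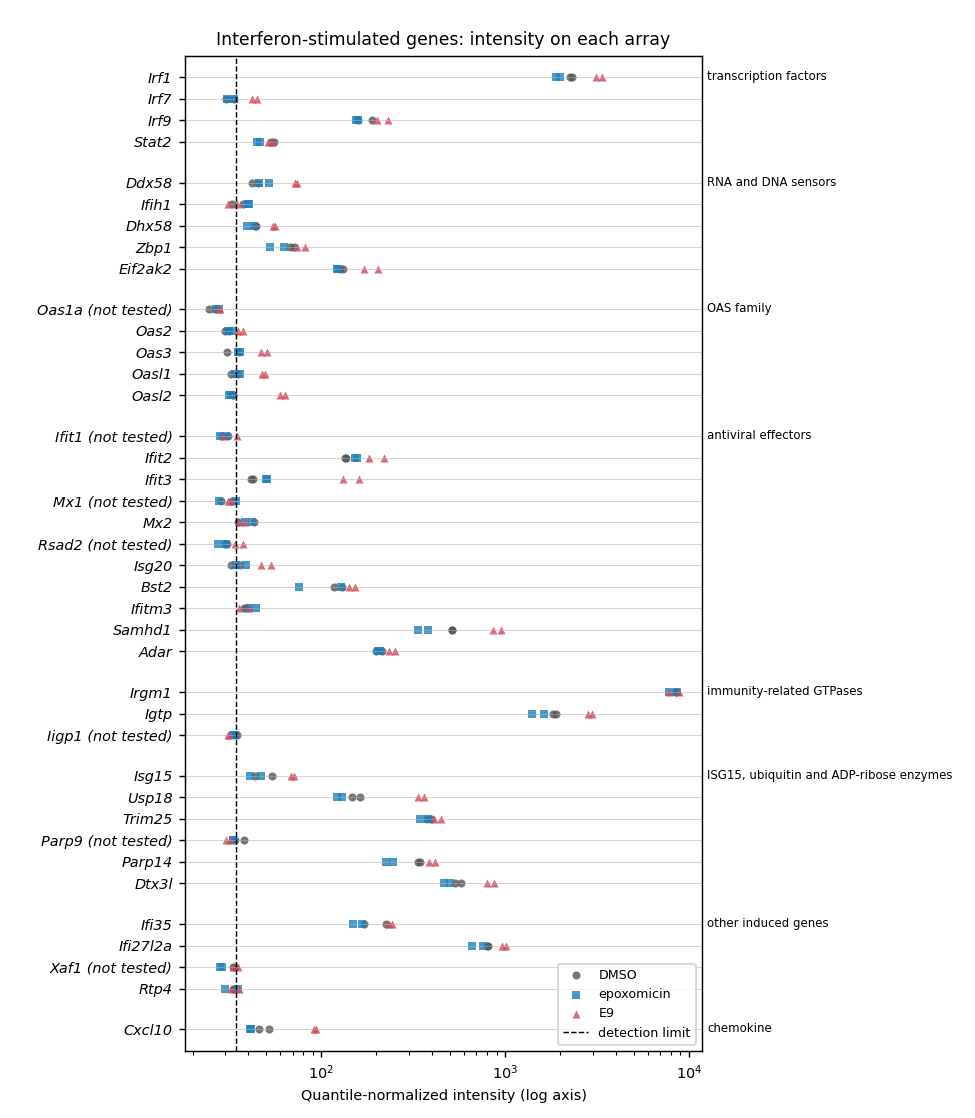
Intensity of the 39 members with a probe on each of the 6 arrays, on a log axis and ordered by role; the dashed line is the detection limit of 34.5, and each symbol is 1 array. The E9 triangles lie to the right of the DMSO circles for most members, as for Ifit3 (132.3 and 161.3 against 41.6 and 42.4), and coincide with them for Irgm1; levels of different genes are not comparable, since each has its own probe.

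Ifng, the gene of interferon gamma, went the other way with E9. Its intensities were 4777.1 and 4696.5 with DMSO, 6586.6 and 6693.0 with epoxomicin, and 948.0 and 677.1 with E9. The groups did not overlap: the E9 arrays were lowest and the epoxomicin arrays highest. Ifng fell with E9 (log2 fold change -2.53 ± 0.13 (SE), limma adjusted p = 1.76e-06). With epoxomicin its log2 fold change was 0.49 (adjusted p = 0.13), a value that passed in a fit without the E9 arrays or without either of them (adjusted p = 0.00657). The further Ifng probe had the same order, with 4501.5 and 4643.1, 7753.6 and 7547.7, and 882.2 and 574.9. The members that rose with E9 did so on the arrays with the lowest Ifng. The epoxomicin arrays, with the highest Ifng, carried 0 raised members, close to the 0.710% of all tested genes that rose with epoxomicin.

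The other ligands gave little signal. The probes for Ifnb1, Ifna4, Ifna5 and Ifnl3, genes of type I and type III interferons, had intensities of 25 to 32.8, under the limit on every array. Ifna2 reached 35.3 on 1 E9 array. Ifna1 was above the limit on all arrays (34.8 to 40.4), with a log2 fold change of 0.015 with E9 (adjusted p = 0.937). Such dim probes set no upper bound on the amount of interferon protein in the medium.

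Receptors and signalling genes, a list of 22 of which 20 were tested, had 6 members that rose and 2 that fell with E9. Of all tested genes 7.52% rose and 7.61% fell with E9. With epoxomicin 0 of the list passed, where 1.26% of all tested genes did. The share that fell with E9 and the 0 with epoxomicin are close to those of all genes. Ifngr1, the ligand-binding chain of the interferon gamma receptor, had intensities of 77.9 and 79.9 with DMSO, 88.7 and 78.0 with epoxomicin, and 180.2 and 185.6 with E9. It rose with E9 (log2 fold change 0.996 ± 0.070 (SE), adjusted p = 1.38e-05). Jak2, a kinase bound to that receptor, had 455.3 and 453.9 with DMSO, 441.4 and 411.4 with epoxomicin, and 193.3 and 197.0 with E9. Its E9 values lay far below all others, and it fell (log2 fold change -1.12 ± 0.065 (SE), adjusted p = 4.59e-06). The suppressors of cytokine signalling Socs1 (0.36) and Socs3 (0.60) rose with E9, as did Jak1 (0.37), the repressor Irf2 (0.31) and the kinase Tbk1 (0.27), while Irf5 fell (-0.29). Of these, Socs1, Jak1, Irf2, Tbk1 and Irf5 lost their call when single DMSO or E9 arrays were left out, as Jak1 without the second E9 array (0.23, adjusted p = 0.106) and Socs1 without the second DMSO array (0.31, adjusted p = 0.0799). Irf2 (adjusted p = 0.0799 without the second DMSO array and 0.0544 without the second E9 array), Tbk1 (0.0993, 0.139 and 0.121 without the first DMSO, the second DMSO and the first E9 array) and Irf5 (0.146 and 0.0937 without the first DMSO and the second E9 array) did so too, and Jak1 also without the first or the second DMSO array (0.0775 and 0.141). The type I receptor chain Ifnar2 had a log2 fold change of 0.22 with E9 (adjusted p = 0.103). With the mean of all its kept probes in the limma fit it passed as higher (0.249, adjusted p = 0.0197). Ifngr2 had 0.022 with E9 (adjusted p = 0.951), and the Ifnar1 probe was under the limit on every array (26.8 to 30.9).

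**Figure D2:**
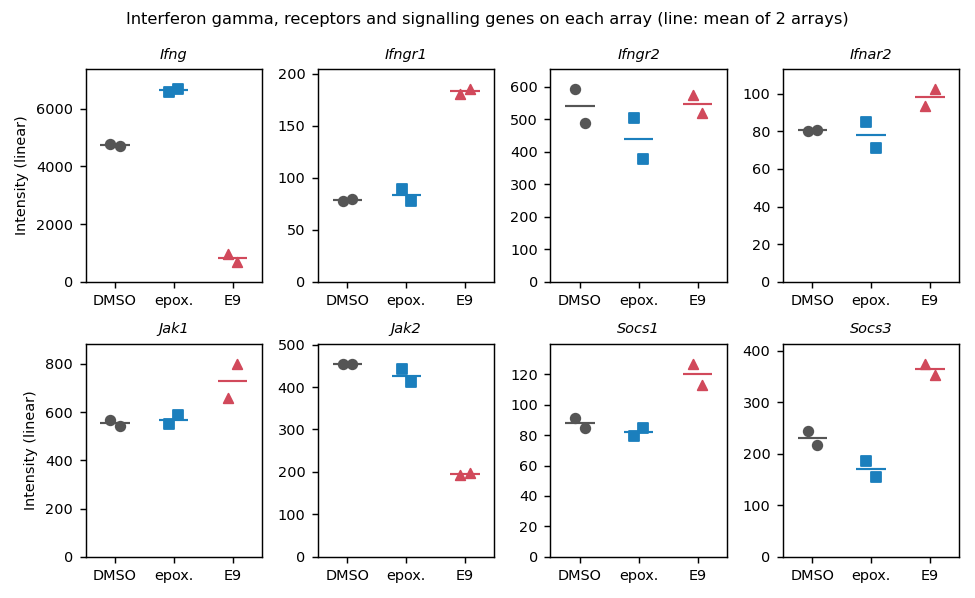
Intensity (linear axes from 0) of Ifng, 3 receptor chains, Jak1, Jak2, Socs1 and Socs3 on each array, with the mean of the 2 arrays of a group as a line. Ifng and Jak2 are lowest on both E9 arrays (Ifng 948.0 and 677.1, Jak2 193.3 and 197.0), while Ifngr1 (180.2 and 185.6) and Socs3 (375.1 and 352.2) are highest there.

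Promoter sequences were read for letter matches to the ISRE and the GAS. RefSeq promoters (build GRCm38.p6, 250 bases before to 50 after the start) were found for 29 of the 40 members and searched on both strands for GAAA, any 2 bases and GAAA as the ISRE and for TTCNNNGAA as the GAS. The ISRE was in 15 of the 29 members and in 3.99% of the 27025 genes with a promoter, and the GAS in 11 of the 29 and in 9.55% of genes. Among the members that rose with E9, 7 of the 15 with a promoter held the ISRE and 6 the GAS, against 8 and 5 of the other 14. A match is a run of letters and was not tested as a binding site. The 250 bases before the start are given 5′ to 3′ for Ifit3 (chr19:34583279-34583528, plus strand), Cxcl10 (chr5:92348890-92349139, minus strand) and Igtp (chr11:58199306-58199555, plus strand), the members with an ISRE match and the largest rise with E9, with the ISRE in capitals.
Ifit3: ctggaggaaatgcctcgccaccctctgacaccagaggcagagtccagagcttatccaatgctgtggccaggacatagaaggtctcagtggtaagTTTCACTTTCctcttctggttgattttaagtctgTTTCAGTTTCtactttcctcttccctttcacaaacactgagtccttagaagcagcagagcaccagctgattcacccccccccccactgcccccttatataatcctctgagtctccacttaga
Cxcl10: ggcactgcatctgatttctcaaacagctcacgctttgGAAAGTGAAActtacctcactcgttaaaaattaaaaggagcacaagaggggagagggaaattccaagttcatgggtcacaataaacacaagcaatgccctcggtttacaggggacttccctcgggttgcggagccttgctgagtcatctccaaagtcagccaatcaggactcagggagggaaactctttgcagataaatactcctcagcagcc
Igtp: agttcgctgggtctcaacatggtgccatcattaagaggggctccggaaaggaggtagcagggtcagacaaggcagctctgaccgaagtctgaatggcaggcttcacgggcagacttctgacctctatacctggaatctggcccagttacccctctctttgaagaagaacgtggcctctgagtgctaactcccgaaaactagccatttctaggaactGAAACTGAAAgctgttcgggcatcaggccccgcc
Ifit3 held 2 matches, both on the strand opposite to the gene, whose first bases lay 156 and 122 bases before the start. The match of Cxcl10 began 213 bases and that of Igtp 34 bases before the start, both on the gene's strand. Igtp also held 1 GAS match, and Ifit3 and Cxcl10 none.

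Among the transcription factors 2 of 4 rose with E9 and 0 changed with epoxomicin, beside 7.52% and 1.26% of all tested genes. The 0 with epoxomicin is close to that share, and Irf7 was above the limit on the E9 arrays alone. Irf1, an activator induced by interferon gamma, had intensities of 2264.4 and 2312.4 with DMSO, 1979.6 and 1888.1 with epoxomicin, and 3390.2 and 3109.9 with E9. The 3 groups did not overlap, with E9 highest and epoxomicin lowest. Irf1 rose with E9 (log2 fold change 0.50 ± 0.069 (SE), adjusted p = 0.00099) and was lower with epoxomicin than with E9 (-0.74, adjusted p = 8.75e-05); against DMSO its value with epoxomicin was -0.24 (adjusted p = 0.182). All 5 Irf1 probes passed as higher with E9, with log2 fold changes of 0.36 to 0.62.

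Irf7, the factor that amplifies type I interferon production, was not well above background with DMSO (33.7 and 30.6) or epoxomicin (33.7 and 30.7) and reached 44.6 and 41.9 with E9. Both E9 values lay above the other 4, and Irf7 was at least 1.14-fold higher with E9 than with DMSO (adjusted p = 0.0312) and than with epoxomicin (adjusted p = 0.0369). Here and for the other bounds the E9 mean was set against the detection limit or the dim group's own signal, whichever was higher. The E9 call of Irf7 was lost when any single array was left out, with adjusted p from 0.053 to 0.19 (0.0729 and 0.19 without the first and the second DMSO array, 0.114 and 0.053 without the first and the second E9 array, 0.053 without either epoxomicin array), and so was its difference between the compounds (0.0548 to 0.227).

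Irf9, the DNA-binding part of the type I interferon complex, had 190.0 and 158.6 with DMSO, 155.4 and 158.4 with epoxomicin, and 200.7 and 230.0 with E9. The E9 values were highest, with the first DMSO array close to them. Its log2 fold change with E9 was 0.27 ± 0.090 (SE) and missed the threshold (adjusted p = 0.0787), but it passed without the first DMSO array (0.38, adjusted p = 0.0429) and without the first E9 array (0.36, adjusted p = 0.0431), and its further probe passed as higher (0.35, adjusted p = 0.00559 over probes). Irf9 was lower with epoxomicin than with E9 (-0.40, adjusted p = 0.0181; 0.121, 0.0987 and 0.0811 without the first epoxomicin, the second epoxomicin and the second E9 array). Stat2, its partner, had 55.2 and 53.1 with DMSO, 46.4 and 44.6 with epoxomicin, and 51.3 and 53.8 with E9. The E9 and DMSO values overlapped, the epoxomicin values were lowest, and Stat2 passed in no comparison (adjusted p = 0.845 for E9 and 0.346 for epoxomicin).

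Of the 5 sensors of foreign nucleic acid, 3 rose with E9 and 0 changed with epoxomicin, beside 7.52% and 1.26% of all tested genes. The 0 with epoxomicin is close to that share. Ddx58, which encodes the RNA sensor RIG-I, had 45.5 and 42.0 with DMSO, 52.3 and 46.2 with epoxomicin, and 73.9 and 72 with E9. All arrays were above the limit and E9 stood clear of both other groups. Ddx58 rose with E9 (log2 fold change 0.51 ± 0.069 (SE), adjusted p = 0.00088) and was lower with epoxomicin than with E9 (-0.40, adjusted p = 0.00436; 0.0546 without the second epoxomicin array). Eif2ak2, the RNA-activated kinase PKR that halts translation, had 126.7 and 130.9 with DMSO, 122.4 and 123.6 with epoxomicin, and 205.1 and 171.7 with E9. The E9 arrays differed from each other by more than those of the other groups, yet both lay above them, and Eif2ak2 rose (0.47 ± 0.081 (SE), adjusted p = 0.00369).

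Dhx58, which encodes LGP2, a regulator of the other RNA sensors, had 44.1 and 43.8 with DMSO, 43.3 and 39.6 with epoxomicin, and 56.2 and 54.5 with E9. The E9 values were highest, and the gene passed narrowly (0.22 ± 0.064 (SE), adjusted p = 0.048). That call was lost without any single array (adjusted p = 0.162 and 0.184 without the first and the second DMSO array, 0.142 and 0.091 without the first and the second E9 array, 0.0725 without either epoxomicin array), and its further kept probe did not pass (0.13, adjusted p = 0.329 over probes). Ifih1, which encodes the sensor MDA5, stood at 37.8 and 32.9 with DMSO, 40.6 and 39.9 with epoxomicin, and 34.7 and 31.3 with E9. These values lie about the limit, the E9 and DMSO arrays overlapped, and Ifih1 passed in no comparison (-0.056 with E9, adjusted p = 0.699). Zbp1, a sensor of left-handed nucleic acid that can trigger cell death, had 68.0 and 71.0 with DMSO, 62.8 and 52.8 with epoxomicin, and 81.3 and 74.4 with E9. The order was E9, DMSO, epoxomicin with no overlap, and only the ends of it differed past the threshold (epoxomicin minus E9 -0.31, adjusted p = 0.0263; 0.21 without the second epoxomicin array and 0.113 without the first E9 array).

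The OAS family includes enzymes that sense double-stranded RNA and make a second messenger that activates the RNA-degrading enzyme RNase L. Of its 4 tested members 3 rose with E9, beside 7.52% of all tested genes. Oas2 and Oasl2 were above the limit on the E9 arrays alone, so they entered the test through that group. Oasl2 was not well above background with DMSO (33.4 and 33.3) or epoxomicin (31.6 and 32.4) and reached 60.1 and 63.4 with E9. It was at least 1.45-fold higher with E9 than with either other group (adjusted p = 0.000231 against DMSO and 0.000171 against epoxomicin). Oas3 had 35.6 and 30.7 with DMSO, 35.3 and 36.4 with epoxomicin, and 47.4 and 50.7 with E9. It rose with E9 (0.35 ± 0.069 (SE), adjusted p = 0.00792), a call that was lost without the second DMSO array (0.29, adjusted p = 0.0739). Oasl1, which in mice represses translation of Irf7, had 32.4 and 35.3 with DMSO, 34.0 and 36.3 with epoxomicin, and 49.7 and 48.0 with E9. The E9 arrays were again the high ones, and Oasl1 rose (0.32 ± 0.065 (SE), adjusted p = 0.00806; 0.0677 without the first DMSO array), although its further kept probe gave 0.016 (-0.12 with epoxomicin). Oas2 was above the limit on the E9 arrays alone (37.6 and 35.4, against 30.0 to 32.6 elsewhere) and did not pass (0.14, adjusted p = 0.191). Oas1a was under the limit on every array (24.5 to 28.3) and was not tested.

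Antiviral effectors split evenly, with 4 of 8 tested members raised by E9, beside 7.52% of all tested genes. Ifit3, which belongs to a family of proteins that bind viral RNA, had intensities of 41.6 and 42.4 with DMSO, 50.2 and 50.9 with epoxomicin, and 132.3 and 161.3 with E9. The E9 values were about 3.5 times the DMSO values and stood apart from both groups, while the epoxomicin values lay slightly above DMSO without overlap. Ifit3 rose with E9 (log2 fold change 1.34 ± 0.083 (SE), adjusted p = 6.52e-06), and epoxomicin against DMSO did not pass (0.17, adjusted p = 0.492). Its further probe was dimmer, with 35.4 and 32.5, 35.1 and 38.1, and 44.9 and 46.2, and rose less (0.26, adjusted p = 0.0274 over probes). Ifit3b, a closely similar neighbour named by a probe of its own, had a log2 fold change of 0.31 with E9, and cross-hybridisation between these copies was not tested. Ifit2 of the same family had 135.1 and 137.3 with DMSO, 152.5 and 156.8 with epoxomicin, and 182.4 and 220.6 with E9. The order was again E9, epoxomicin, DMSO with no overlap, and Ifit2 rose with E9 (0.48 ± 0.083 (SE), adjusted p = 0.0036; further probe 0.37). Its difference between the compounds (-0.33, adjusted p = 0.0304) was lost without any single array other than the first E9 array (0.0533 without either DMSO array, 0.176 and 0.13 without the first and the second epoxomicin array, 0.13 without the second E9 array). Ifit1 was above the limit on 1 E9 array alone (34.8) and was not tested.

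Samhd1, an enzyme that depletes the nucleotides needed for reverse transcription, was the only member to pass in opposite directions with the 2 compounds. Its intensities were 517.0 and 516.8 with DMSO, 338.2 and 382.4 with epoxomicin, and 857.6 and 946.6 with E9. The 3 groups were far apart, with DMSO in the middle. Samhd1 rose with E9 (log2 fold change 0.77 ± 0.079 (SE), adjusted p = 0.000146), fell with epoxomicin (-0.49, adjusted p = 0.0197) and differed between the compounds (-1.27, adjusted p = 6.51e-06). The epoxomicin call was lost without either DMSO array (adjusted p = 0.146 each) and without either epoxomicin array (0.168 and 0.103 without the first and the second), and neither further probe passed as lower (-0.035 and -0.22). With E9 those further probes gave 0.64 (adjusted p = 0.000182 over probes) and 0.60 (adjusted p = 0.0688).

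Isg20, an exonuclease of viral RNA, had 32.3 and 36.2 with DMSO, 39.0 and 34.6 with epoxomicin, and 47.3 and 53.5 with E9. It rose with E9 (0.34 ± 0.074 (SE), adjusted p = 0.0119), a call that was lost without the first DMSO array (0.0938) or the second E9 array (0.0593). Adar, an RNA-editing enzyme, had 213.5 and 200 with DMSO, 208.0 and 203.5 with epoxomicin, and 235.2 and 251.3 with E9. The E9 values were highest but the change missed the threshold (0.21 ± 0.067 (SE), adjusted p = 0.0674), and 1 of its 4 further probes passed as higher with E9 (0.33, adjusted p = 0.0231 over probes). Bst2, the membrane protein tetherin that holds budding virus, had 129.8 and 117.6 with DMSO, 127.6 and 75.6 with epoxomicin, and 152.9 and 142.5 with E9. The epoxomicin arrays disagreed with each other and no comparison passed, but without the first epoxomicin array Bst2 was lower with epoxomicin than with E9 (-0.78, adjusted p = 0.002). Mx2 (35.4 to 43.3) and Ifitm3 (35.7 to 44.4), a GTPase and a membrane protein of antiviral families, lay just above the limit on all arrays. Their log2 fold changes with E9 were -0.045 and -0.018, and the E9 and DMSO values overlapped. For both genes the epoxomicin values lay slightly above both E9 values, and neither gene passed in any comparison. Mx1 (27.7 to 34.4) was under the limit throughout, and Rsad2, which encodes viperin, exceeded it on 1 E9 array (37.8); neither was tested.

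The immunity-related GTPases attack the vacuoles of intracellular pathogens in mice. Of the 2 tested 1 rose with E9, beside 7.52% of all tested genes. Igtp had intensities of 1830.2 and 1903.5 with DMSO, 1624.6 and 1394.2 with epoxomicin, and 2812.0 and 2972.6 with E9. The groups did not overlap, in the order E9, DMSO, epoxomicin. Igtp rose with E9 (log2 fold change 0.62 ± 0.082 (SE), adjusted p = 0.000713) and was lower with epoxomicin than with E9 (-0.93, adjusted p = 6.12e-05); against DMSO epoxomicin gave -0.31 (adjusted p = 0.15).

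For Irgm1 the probes disagreed. The brightest, used for the count, had 8538.4 and 8538.4 with DMSO, 8574.3 and 7793.2 with epoxomicin, and 7835.9 and 8782.5 with E9, with all groups overlapping and a log2 fold change of -0.041 with E9 (adjusted p = 0.818). Another Irgm1 probe had 604.7 and 564.2 with DMSO, 446.9 and 414.5 with epoxomicin, and 993.7 and 1058.2 with E9. In that probe the groups did not overlap, and it passed as higher with E9 (0.79 ± 0.071 (SE), adjusted p = 7.39e-05 over probes) and lower with epoxomicin (-0.42, adjusted p = 0.0302). The remaining Irgm1 probe (109.9 and 102.1, 69.3 and 88.0, 120.5 and 129.6) had the same order and was lower with epoxomicin than with E9 (-0.54, adjusted p = 0.00377). Irgm1 counts above as a gene that did not pass, by the rule of the brightest probe, and its direction depends on the probe. Iigp1, the other member of the family, had its brighter probe at 31.1 to 34.8 and was not tested.

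**Figure D3:**
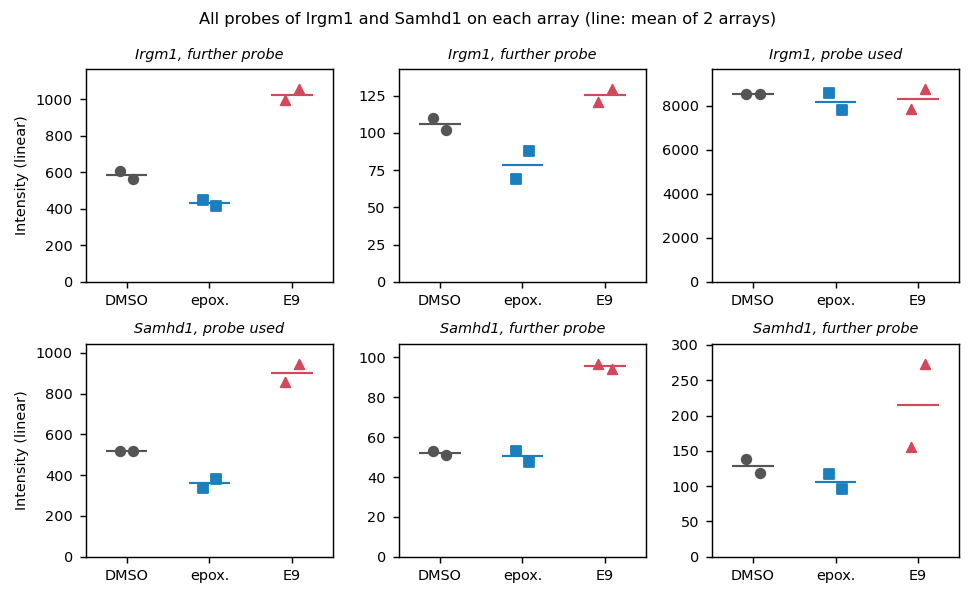
Intensity (linear axes from 0) of the 3 probes of Irgm1 (top) and of Samhd1 (bottom) on each array, with the mean of 2 arrays as a line. The used Irgm1 probe is flat near 8538.4 while its further probes are highest with E9 (993.7 and 1058.2 in the brighter of them), and all 3 Samhd1 probes are highest with E9, with the fall with epoxomicin passing in the used probe alone.

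Enzymes of ISG15, ubiquitin and ADP-ribose had 3 of 5 tested members raised by E9, beside 7.52% of all tested genes. Isg15, the ubiquitin-like modifier, had 43.7 and 54.4 with DMSO, 46.9 and 41.0 with epoxomicin, and 70.9 and 68.9 with E9. The E9 values lay above all others, and Isg15 rose (0.36 ± 0.083 (SE), adjusted p = 0.0164; 0.128 without the first DMSO array and 0.055 without the first E9 array). Usp18, which removes ISG15 and dampens the type I receptor, had 163.0 and 147.9 with DMSO, 122.0 and 129.4 with epoxomicin, and 361.4 and 334.9 with E9. The groups did not overlap, and the mean E9 intensity was 2.24 times that with DMSO. Usp18 rose with E9 (log2 fold change 1.05 ± 0.073 (SE), adjusted p = 1.34e-05) and gave -0.26 with epoxomicin (adjusted p = 0.171); the difference between the compounds was -1.30 (adjusted p = 3.34e-06). Its further probe rose too (0.59, adjusted p = 0.00143 over probes).

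Dtx3l, a ubiquitin ligase that pairs with PARP9, had 576.4 and 535.2 with DMSO, 463.3 and 501.2 with epoxomicin, and 800.6 and 873.1 with E9. It rose with E9 (0.57 ± 0.075 (SE), adjusted p = 0.000746) and was lower with epoxomicin than with E9 (-0.76, adjusted p = 0.000118). Parp9 itself exceeded the limit on 1 DMSO array alone (38.3, elsewhere 30.3 to 33.9) and was not tested. Parp14, an ADP-ribosyltransferase, had 335.6 and 343.2 with DMSO, 246.0 and 226.1 with epoxomicin, and 416.7 and 385.4 with E9. The groups did not overlap, with epoxomicin lowest. Parp14 fell with epoxomicin (-0.48 ± 0.071 (SE), adjusted p = 0.0134), while its value with E9 was 0.22 (adjusted p = 0.0643); the compounds differed (-0.71, adjusted p = 0.000132). The call with epoxomicin was lost without any DMSO or epoxomicin array (adjusted p = 0.121 and 0.129 without the first and the second DMSO array, 0.0758 and 0.189 without the first and the second epoxomicin array), and its dim further probe did not pass (-0.018). Trim25, the ubiquitin ligase that activates RIG-I, had 376.0 and 396.6 with DMSO, 380.4 and 345.9 with epoxomicin, and 451.6 and 413.4 with E9, and passed in no comparison (0.15 with E9, adjusted p = 0.24).

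Cxcl10, a chemokine that draws activated T cells through CXCR3, had intensities of 51.8 and 45.9 with DMSO, 41.6 and 41.0 with epoxomicin, and 91.9 and 93.6 with E9. The groups did not overlap and the E9 mean was 1.90 times the DMSO mean. Cxcl10 rose with E9 (log2 fold change 0.67 ± 0.067 (SE), adjusted p = 0.000125), as did its further probe (0.47, adjusted p = 0.00228 over probes), and was lower with epoxomicin than with E9 (-0.82, adjusted p = 3.43e-05). Ifi27l2a, which encodes a small interferon-induced protein, had 797.6 and 805.6 with DMSO, 664.5 and 760.6 with epoxomicin, and 957.6 and 1008.8 with E9. It rose with E9 (0.29 ± 0.077 (SE), adjusted p = 0.0337), but not without the first or the second DMSO array (0.144 and 0.13) or the second E9 array (0.124), and it also missed the threshold without background correction (0.0629) and with an offset of 16 (0.104). Ifi35 had 171.9 and 225.3 with DMSO, 149.0 and 167.9 with epoxomicin, and 234.5 and 242.9 with E9. The DMSO arrays were spread, and Ifi35 passed only between the compounds (-0.52, adjusted p = 0.0107; 0.108 without the first epoxomicin array), though without the second DMSO array it also passed as higher with E9 (0.42, adjusted p = 0.0272). Rtp4 (30.1 to 35.7) did not pass (0.018 with E9), and Xaf1 (28.1 to 35.5) was not tested.

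**Figure D4:**
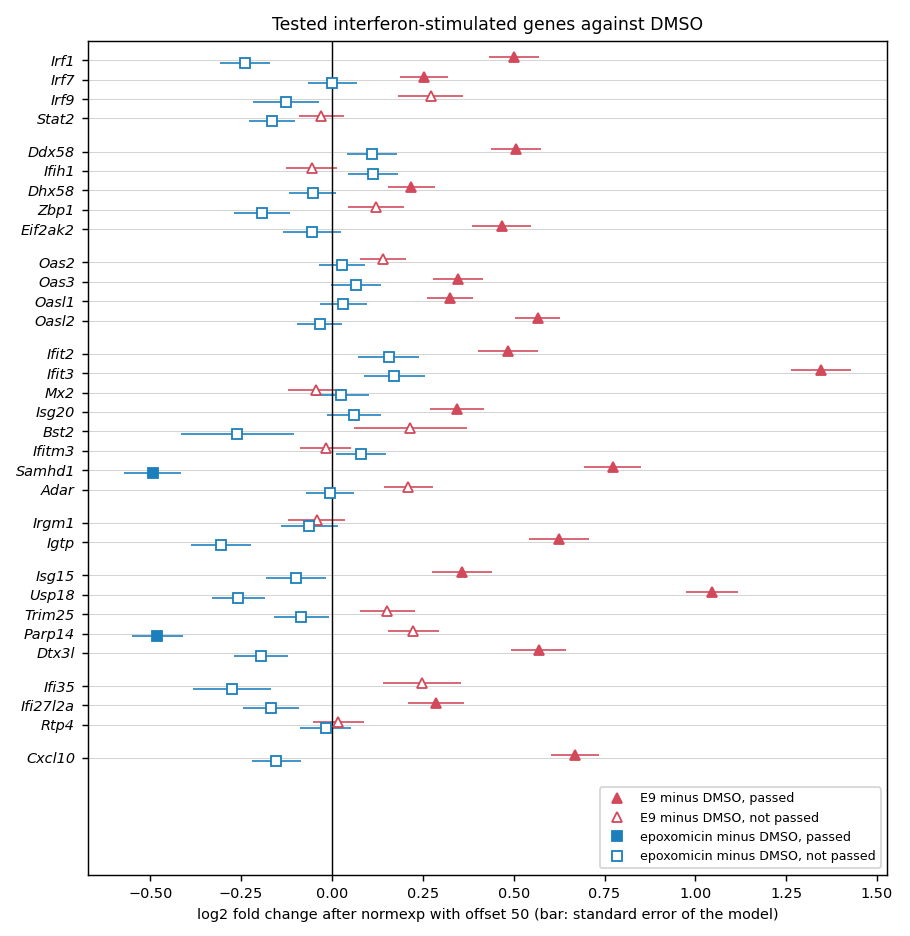
Log2 fold change with the model's standard error for the 32 tested members, E9 minus DMSO (triangles) and epoxomicin minus DMSO (squares), which share the DMSO arrays; filled symbols passed the threshold. Filled triangles all lie right of 0, up to Ifit3 at 1.34, and the 2 filled squares, Samhd1 at -0.49 and Parp14 at -0.48, lie left of it; the values of Irf7 and Oasl2 are fitted and stand in for bounds of at least 1.14-fold and 1.45-fold.

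The comparison between the compounds uses the same E9 arrays as that of E9 with DMSO, so their counts are not independent. Irf9, Zbp1, Parp14 and Ifi35 differed between the compounds and did not pass as higher with E9. The 10 members Stat2, Ifih1, Oas2, Mx2, Bst2, Ifitm3, Adar, Irgm1, Trim25 and Rtp4 passed in no comparison. Of the 6 omissions of a single array, that of the second epoxomicin array lowered the count between the compounds most, to 12 members in place of 22. For Oas3, Oasl1 and Isg20 that difference (-0.28, -0.29 and -0.28) was lost without either epoxomicin array and without 1 of the E9 arrays, with adjusted p of 0.0593 to 0.228. Dhx58 (-0.27) lost it without the first or the second epoxomicin array (0.0661 and 0.162) and without the first E9 array (0.076), and Isg15 (-0.46) without the second epoxomicin array (0.0665). Of the 18 members that rose, 8 had further kept probes, and in 6 of these, Cxcl10, Ifit2, Ifit3, Irf1, Samhd1 and Usp18, a further probe passed as higher too; none passed as lower.

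Of 56 other interferon-stimulated genes tested, 32 rose with E9 and 4 fell, with a median log2 fold change of 0.364. Of all tested genes 7.52% rose and 7.61% fell, so that the share that fell is close to that of all genes. This list too was chosen with earlier results of these data known. Epsti1 had intensities of 127.1 and 91.1 with DMSO, 161.5 and 148.3 with epoxomicin, and 362.4 and 529.7 with E9, a log2 fold change of 1.80 with E9. Slfn1, of the schlafen family, went from 128.7 and 127.2 with DMSO to 433.7 and 374.8 with E9 (1.48), and Ly6e, a membrane protein that restricts viruses, from 963.7 and 829.9 to 2552.1 and 2493.3 (1.47). These exceed the change of every member. The 4 that fell included Ifitm2, which went from 156.2 and 168.2 to 44.7 and 43.7 (-1.43), and Slfn2, from 454.8 and 367.8 to 177.6 and 191.0 (-1.05). The others were Plscr1 (-0.34; adjusted p = 0.26 without the second DMSO array, 0.172 without the second E9 array and 0.0596 without either epoxomicin array) and Ifitm1 (-0.51), a further probe of which passed as higher (0.37). With epoxomicin 1 of the 56 fell, Irgm2 (-0.40), beside 0.547% of all tested genes. That call was lost without any DMSO or epoxomicin array. Of 11 GBP genes with a probe 6 were tested. Among these 4 rose and 1, Gbp5 (-0.61), fell with E9, beside 7.52% and 7.61% of all tested genes. Gbp2, Gbp3 and Gbp5 fell with epoxomicin, where 0.547% of all tested genes fell. Those epoxomicin calls were lost without single DMSO or epoxomicin arrays, with adjusted p of 0.0552 to 0.103 for Gbp2 (which kept it without the first epoxomicin array), 0.072 to 0.357 for Gbp3 and 0.0959 to 0.233 for Gbp5.

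**Figure D5:**
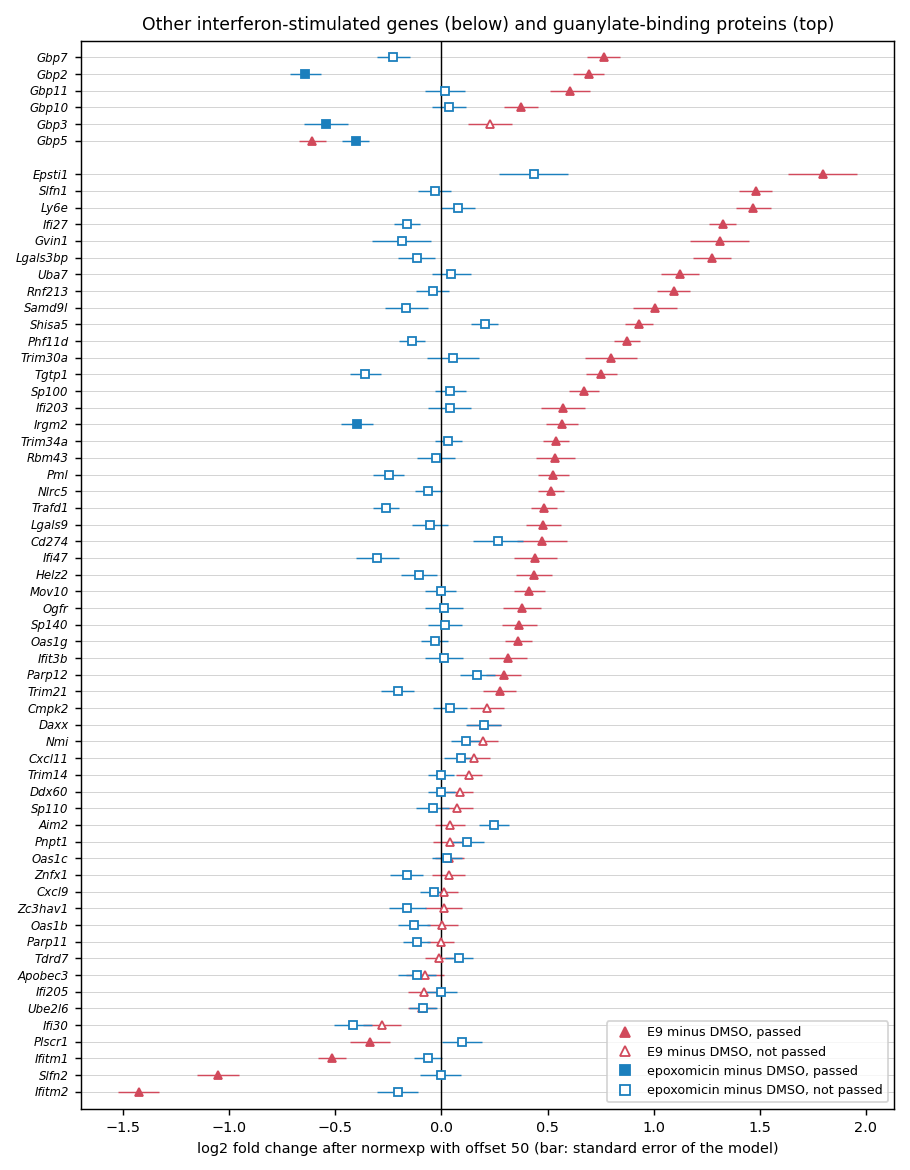
Log2 fold change with the model's standard error of 56 other interferon-stimulated genes (below) and 6 guanylate-binding protein genes (top) against DMSO; triangles are E9, squares epoxomicin, and filled symbols passed. Triangles run from Ifitm2 at -1.43 to Epsti1 at 1.80, while squares stay closer to 0; the value of Gbp11 is fitted and stands in for a bound of at least 1.48-fold.

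Markers of other cell types were summed in the same way. Each probe adds its background to a sum, and the mode of all intensities was 30.7, so sums of dim probes are largely background. Of all tested genes 7.52% rose and 7.61% fell with E9, and 0.710% rose and 0.547% fell with epoxomicin. The 5 B cell genes with a probe summed to 293.1 to 308.6 with DMSO, 214.1 to 226.4 with epoxomicin and 241 to 271.4 with E9. Against DMSO, Cd79b fell with both compounds and Cd74 with epoxomicin but not with E9 (log2 fold change 0.068). Ms4a1 (32.6 to 35.7) and Pax5 (29.5 to 35.8) lay about the limit and passed in no comparison, and Cd22 was under the limit throughout. Sums over the 9 monocyte, macrophage and neutrophil genes were 292.6 to 316.8, 283.8 to 299.3 and 326.7 to 327.3, with Itgam, Fcgr3 and S100a9 under the limit. S100a8 was above the limit on the E9 arrays alone (37.7 and 47.2, against 26.3 to 28.2 elsewhere), so it entered the test through that group. Its E9 signal was at least 1.13-fold higher than with either other group. The 5 conventional dendritic cell genes summed to 160.7 to 161.3, 164.1 to 164.6 and 148.7 to 152, with Itgax, Xcr1 and Clec9a under the limit, and the 4 plasmacytoid dendritic cell genes, a type known for making type I interferon, to 204.2 to 241.7, 204 to 207.6 and 216.6 to 218.3, where 0 passed. The 3 NK cell genes with a probe summed to 141.1 to 141.5, 159.6 to 169.3 and 242.4 to 242.6. Klre1 rose with E9 (175.1 and 179.7, against 74.9 and 79.9 with DMSO). Klrb1c lay about the limit (32.9 to 36.4) and passed in no comparison, and Ncr1 stayed under the limit. The 3 CD4 T cell genes summed to 380.7 to 386.4, 384.9 to 389.1 and 313.3 to 343. Most of that sum was Foxp3 (246.8 to 317.0), which fell with E9. Cd4 (32.2 to 37.0) and Zbtb7b (29.5 to 37.8) lay about the limit. Their log2 fold changes with E9 were 0.061 and -0.13, and neither passed. The part of these shifts in the values of the interferon-stimulated genes was not tested.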

How the data were processed

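Total RNA of 6 samples (3 groups of 2, grouped by title) was measured on 1-colour Illumina bead arrays labelled with streptavidin-Cy3, per the labels. The values used are the deposited linear intensity table; its sorted columns are identical, so the authors had quantile-normalized it. Scanner software and background handling are not given in the sources used here. A table of non-normalized values has 6 columns whose names match no sample label, and was not used. Of 45281 probes, 35784 carried 1 symbol, 0 several and 9497 none; 31257 were matched to RefSeq and 4527 kept the array's symbol. Parp9, and 1 probe each of Iigp1, Dhx58 and Rtp4, were found through older names.

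From the deposited intensities, log2 values were computed after normexp correction (offset 50). Probes above 34.5 (one-sided probability 0.05) on at least 2 arrays were kept (20349), with the brightest per gene (13524 genes; 4521 with several). limma 3.58.1 (R 4.3.3; lmFit, eBayes, 2-sided) fitted the 3 groups together, with 3 residual and 6.32 prior degrees of freedom and Benjamini-Hochberg adjustment over all genes (over all kept probes for further probes); the median SE was 0.0722. The small number of arrays limits the precision. An exact permutation test of 2 against 2 arrays cannot reach 0.05 and was not used. Members, lists and naming rule were chosen with earlier results of these data known: all members, listed pathway genes that passed, and Ifng and the receptors whatever their values; 1 further gene of that rule is not reported here. The fit was also run on simulated data built from the DMSO means and the spread of each gene, with an outcome that is not given here. Alternatives tried were a replicate block, only the compared groups, no background correction, an offset of 16, no filter and a stricter filter, the mean of all kept probes, trended and robust eBayes, a threshold of 2-fold, and omission of single arrays. Figures used Python 3.11.15 with matplotlib 3.10.9.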

Additional observations from a re-analysis of the deposited data

How the results depend on the processing

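No member that passed changed sign under any alternative tried, and 11 of the 18 members that rose with E9 passed under each one that could be fitted, the 2-fold threshold aside (Irf1, Ddx58, Eif2ak2, Oasl2, Ifit2, Ifit3, Samhd1, Igtp, Usp18, Dtx3l and Cxcl10), as did 11 of the 22 that differed between the compounds and 0 of the 2 that fell with epoxomicin. With the mean of all kept probes Irgm1 turned from -0.041 to 0.31 with E9 (adjusted p = 0.00854), since its probes disagree, and 0 members fell with epoxomicin in place of 2. With a 2-fold threshold 0, 2 and 3 members and 4, 165 and 164 genes passed in the order epoxomicin to DMSO, E9 to DMSO and epoxomicin to E9, by construction fewer than the 170, 2046 and 1706 genes of the main setting. Leaving out single arrays gave 0 to 2, 13 to 16 and 12 to 20 members, and 1 to 238, 1228 to 1878 and 938 to 1608 genes. Other alternatives gave 12 to 19 members for E9 and 17 to 23 between the compounds. The labels do not say whether the replicate numbers pair the arrays, so they were not used as pairs in the main fit. Differences between replicates 1 and 2 correlated across 13524 genes with r of 0.214 for DMSO and epoxomicin, -0.317 for DMSO and E9 and -0.203 for epoxomicin and E9. These values cannot decide a pairing, since each group gives only 1 such difference. With a replicate block 91 genes passed for epoxomicin against DMSO in place of 170, and 2, 17 and 20 members passed in the same order. Signal over background limits the dim members most: 7 with a probe could not be tested, and Irf7, Oas2 and Oasl2 exceeded the limit on the E9 arrays alone. Where a group is left with 1 array, it is assumed to vary like the others.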
